A study of Mus musculus with 43 samples.

Results

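Members of 16 families of transcription factor genes that mark regions of the developing and adult brain were followed through the nuclei of the mouse hypothalamus. They were chosen by name. A gene was a member if its symbol had the stem of a family (Dlx, Lhx, Nkx, Sox, Zic, Pou, Meis, Pbx, Irx, Onecut, Isl, Fox, Tbx, Ebf, Hmx or that of Six3) followed by the numbering of that family, and Foxo genes and Sox9 were left out. The rule found 72 of the 10127 genes in the table, of which 64 code for proteins and 8 are noncoding transcripts named after a neighbour (Dlx1as, Dlx6os1, Lhx1os, Nkx2-2os, Six3os1, Sox1ot, Sox5os1 and Tbx3os2). Only the noncoding Tbx3os2 stood for the Tbx family. The table analysed here did not cover every member of each family, so counts per family refer to the genes measured.

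RNA was sequenced from laser captures of the paraventricular nucleus (PVN), arcuate nucleus (ARC), ventromedial hypothalamus (VMH) and dorsomedial hypothalamus (DMH). All animals were adult male mice, labelled C57/BL6 and described in the methods as on a C57BL/6J background, with a deletion of the Snord116 snoRNA cluster on the paternal chromosome, B6(Cg)-Snord116tm1.1Uta/J, a model of part of the Prader-Willi locus. They were fed ad libitum or fasted for 24 h. The deletion was thus shared by fed and fasted groups, and wild-type mice do not enter the comparisons. The 41 libraries came from 12 mice in 3 batches of capture and library preparation, with 4 fasted and 5 fed libraries of the ARC, 5 and 6 of the DMH, 5 and 5 of the PVN, and 6 and 5 of the VMH. Values are read counts scaled to a common library total (CPM). The low values of each library placed the total used for this scaling, called depth here, between 1.94 and 8.23 M (mega) reads. The methods give a higher average of sequenced reads per sample. The genes listed summed to 554896 to 689010 CPM per library. A gene listed at 0 may have been present at up to 0.732 CPM at the median depth (3 counts), and at up to 1.55 CPM in the shallowest library.

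Transcription factors of these families bind DNA through a homeodomain (Dlx, Lhx, Nkx, Pou, Meis, Pbx, Irx, Onecut, Isl, Hmx, and Six3 with its relatives), an HMG box (Sox), a forkhead domain (Fox), zinc fingers (Zic), a T-box (Tbx) or the domain of the Ebf factors. In the embryo they divide the hypothalamus into territories and give neurons their type, and many stay on in adult neurons. Dlx genes accompany GABA neurons of the forebrain, Isl1 is needed by several arcuate neuron types, and Pou3f2 is needed for the neuroendocrine neurons of the PVN.

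The captures were checked against their labels by the marker genes measured. Avp and Crh together summed to 426 to 1600 CPM in the PVN and to at most 10 CPM elsewhere. Npy was at 195 to 1226 CPM in the ARC and at most 33.4 CPM elsewhere, Npvf was at 56.5 to 225 CPM in the DMH and at most 6.3 CPM elsewhere, and Fezf1 and Bdnf summed to 205 to 294 CPM in the VMH and to at most 49.7 CPM elsewhere. The VMH sum was set apart by Fezf1, at 172 to 256 CPM there and at most 21.9 CPM elsewhere, whereas Bdnf overlapped, at 18.8 to 43.7 CPM in the VMH and 12.1 to 43.5 CPM in the PVN. Hcrt and Pmch, which mark neurons of the neighbouring lateral hypothalamus, averaged 112 and 277 CPM in the DMH captures and at most 2.21 and 28.3 CPM in the others, and their part in the DMH values was not tested. Markers of other cells also differed between captures. The 6 measured endothelial markers of 7 summed to 216 to 368 CPM in the PVN and to at most 195 CPM elsewhere, and the 8 measured oligodendrocyte markers of 10 summed to 1163 to 1828 CPM in the VMH, 464 to 1612 CPM in the DMH, 262 to 810 CPM in the ARC and 363 to 638 CPM in the PVN, so VMH and DMH overlapped. Col23a1, the 1 gene measured of 7 on the list for ependymal cells and tanycytes, was at 20.6 to 63.9 CPM in the ARC and at most 23.5 CPM elsewhere. In such bulk captures, fewer cells of a type and less RNA per cell cannot be told apart.

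Promoter sequences are shown for the members that led each nucleus by log2 difference, with Zic1 and Sox1 beside them as members of the families that stood out in the PVN and VMH. They are from RefSeq on GRCm38.p6, the build of the files, and run 5′ to 3′ from 250 bases before the start of the transcript to 50 bases after it. Of the 72 members, 48 matched such a window. Capitals mark TAATTA (a core that many homeodomains bind), ATGCAAAT (the octamer bound by POU factors) and ACAAAG (a core that SOX factors bind), searched on both strands, and no marked stretches overlapped. The windows are chr13:116309639-116309938 on the minus strand for Isl1, chr6:6869484-6869783 on the minus strand for Dlx6os1, chr4:22488317-22488616 on the minus strand for Pou3f2, chr9:91365719-91366018 on the minus strand for Zic1, chr9:99876121-99876420 on the minus strand for Sox14 and chr8:12395269-12395568 on the plus strand for Sox1.
Isl1: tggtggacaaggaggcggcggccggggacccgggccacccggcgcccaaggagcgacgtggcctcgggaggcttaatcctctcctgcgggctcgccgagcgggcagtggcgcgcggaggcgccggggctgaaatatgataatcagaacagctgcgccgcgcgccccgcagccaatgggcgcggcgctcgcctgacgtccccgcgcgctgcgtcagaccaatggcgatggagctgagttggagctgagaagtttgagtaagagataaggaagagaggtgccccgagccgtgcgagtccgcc
Dlx6os1: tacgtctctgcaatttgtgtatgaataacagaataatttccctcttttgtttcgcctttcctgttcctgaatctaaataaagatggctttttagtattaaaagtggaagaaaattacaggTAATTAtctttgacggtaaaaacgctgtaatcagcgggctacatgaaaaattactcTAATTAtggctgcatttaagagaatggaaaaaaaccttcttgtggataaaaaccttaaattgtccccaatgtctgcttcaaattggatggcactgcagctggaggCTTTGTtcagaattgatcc
Pou3f2: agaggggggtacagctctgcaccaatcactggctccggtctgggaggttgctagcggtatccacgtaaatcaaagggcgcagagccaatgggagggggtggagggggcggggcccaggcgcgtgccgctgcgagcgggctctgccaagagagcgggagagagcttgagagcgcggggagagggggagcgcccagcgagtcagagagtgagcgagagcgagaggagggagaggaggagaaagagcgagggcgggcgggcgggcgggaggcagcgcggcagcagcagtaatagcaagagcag
Zic1: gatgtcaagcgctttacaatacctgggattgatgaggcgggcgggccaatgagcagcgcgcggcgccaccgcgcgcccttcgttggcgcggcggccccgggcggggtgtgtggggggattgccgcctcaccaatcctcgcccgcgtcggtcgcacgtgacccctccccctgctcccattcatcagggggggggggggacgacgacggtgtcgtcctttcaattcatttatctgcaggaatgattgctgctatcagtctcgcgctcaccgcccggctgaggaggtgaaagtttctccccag
Sox14: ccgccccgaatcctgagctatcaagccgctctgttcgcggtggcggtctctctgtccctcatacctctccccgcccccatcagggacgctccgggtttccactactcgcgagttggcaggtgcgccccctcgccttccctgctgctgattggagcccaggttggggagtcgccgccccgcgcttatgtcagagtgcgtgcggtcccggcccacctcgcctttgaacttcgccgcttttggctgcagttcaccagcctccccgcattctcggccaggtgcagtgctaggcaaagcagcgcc
Sox1: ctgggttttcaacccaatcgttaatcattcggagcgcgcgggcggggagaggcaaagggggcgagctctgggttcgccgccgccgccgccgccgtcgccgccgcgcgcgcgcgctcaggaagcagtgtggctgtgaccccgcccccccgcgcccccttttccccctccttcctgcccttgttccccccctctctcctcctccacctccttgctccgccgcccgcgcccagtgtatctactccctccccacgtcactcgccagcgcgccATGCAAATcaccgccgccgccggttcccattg
The window of Dlx6os1 held TAATTA at 2 places and ACAAAG at 1, that of Sox1 held the octamer once, and the other 4 held none of these letters. The RefSeq start of Dlx6os1 lay 2059 bp from the 5′ end of the gene in GENCODE M21, that of Sox1 224 bp, that of Zic1 42 bp, and the others at most 1 bp. The Dlx6os1 window had a GC content of 35.7%, and the other windows shown lay between 65.3% and 70.7%. The median GC content was 64.2% over the 48 member windows and 52.7% over all 32851 windows in the reference table. TAATTA was in 4.17% of member windows and 5.29% of all windows, ATGCAAAT in 4.17% and 1.74%, and ACAAAG in 18.8% and 18.7%.

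The first comparison asked which members differed between nuclei. Each nucleus was set against the mean of the other nuclei within mice with limma on log2(CPM + 0.5). A member was called where the adjusted p (Benjamini-Hochberg over all genes) was below 0.1 and the log2 difference reached 1 in size. Ranges and means include VMH-85 and DMH-92, the only libraries of their mice, which add nothing to these within-mouse differences. Of the 72 members 70 passed the filter of 1 CPM in at least 9 libraries, and Foxc2 was among the 2 that did not. By an F-test over the nuclei 55 of the 70 members differed, 78.6% of them, where 43.4% of all 10077 genes tested did. The span from the lowest to the highest nucleus mean had a median of 1.73 on the log2 scale over the 70 members and 0.61 over all genes tested. Among genes that averaged 5 CPM or more the median span was 1.43 for 44 members and 0.53 for 7639 genes. Differences between pairs of nuclei at an adjusted p under 0.1 were found for 31 to 39 of the 70 members. The pair with the most was ARC and PVN, with 39 members and a background of 17.3%, followed by ARC and VMH (34 members, background 30.3%) and DMH and PVN (34 members, background 18.3%). There were 32 members for ARC and DMH (background 18.1%), 31 for DMH and VMH (22.6%) and 31 for PVN and VMH (32.1%).

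**Figure D1:**
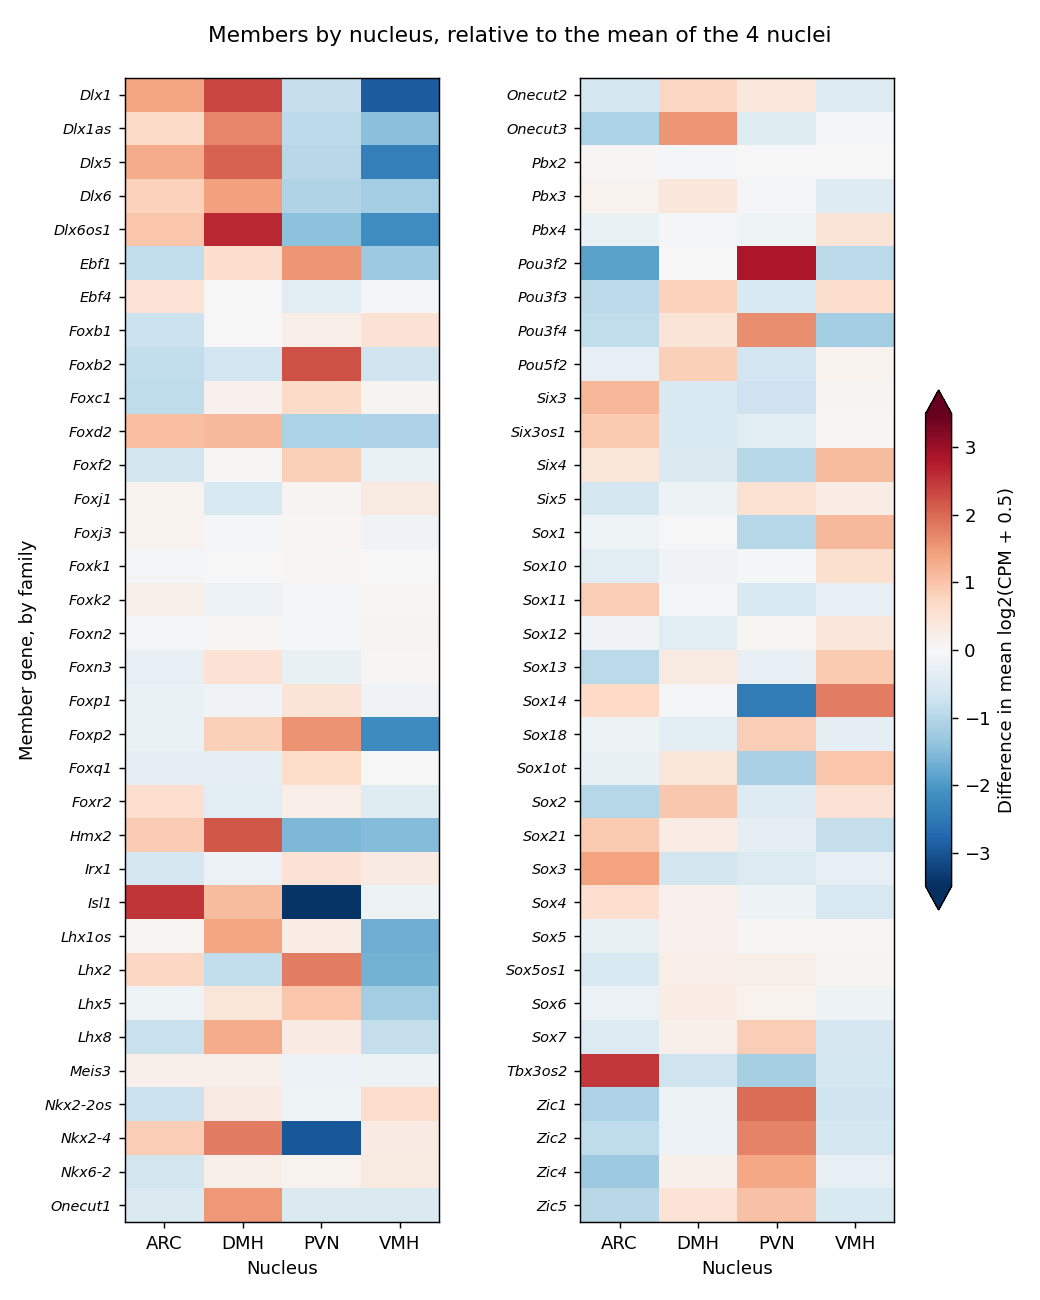
Mean log2(CPM + 0.5) of members tested in each nucleus, minus the mean of the 4 nuclei, with families in alphabetical order and each column 1 nucleus. Dlx members are highest in the DMH, Zic members in the PVN, Isl1 in the ARC and Sox14 in the VMH, while Pbx2, Foxk1 and Foxn2 are close to 0 in every nucleus.

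The ARC was marked by Isl1, Tbx3os2 and Six3. In all, 15 members were called higher there (background 2.74%) and 13 lower (background 3.11%). Isl1, a LIM homeodomain factor at chr13:116298281-116309689 on the minus strand, had a lowest, median and highest level of 51.1, 76.6 and 91.1 CPM in the 9 ARC libraries. Its range was 9.98 to 42.7 CPM in the DMH, 3.67 to 19.2 CPM in the VMH and 0.189 to 3.17 CPM in the PVN. Every ARC library was thus above every library of the other nuclei, and every PVN library below every other, which held for 0.228% and 0.0496% of all genes. The log2 difference of the ARC from the others was 3.36 ± 0.24 (SE, adjusted p 4.65e-15). The order ARC, DMH, VMH, PVN held between neighbours, with log2 differences of 1.37 (adjusted p 0.000451) between ARC and DMH and 1.39 (adjusted p 0.000147) between DMH and VMH, and PVN minus VMH was -3.18 (adjusted p 1.14e-12).

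Six3, a factor of the anterior forebrain, had a lowest, median and highest ARC level of 32.9, 51 and 109 CPM. Elsewhere it was at 7.14 to 46.9 CPM, so the nuclei overlapped, and the log2 difference was 1.52 ± 0.16 (adjusted p 1.28e-09). Its order was ARC, VMH, DMH, PVN, and the difference between DMH and PVN missed the threshold (0.19 ± 0.19, adjusted p 0.592). The antisense neighbour Six3os1 was also called (adjusted p 3.36e-05). The pair shares 106 bp of exon on opposite strands, and the use of strand in the counting is not stated, so their reads may not be separable. Tbx3os2, a noncoding transcript next to Tbx3, was at 2.28 to 30 CPM in the ARC. It was listed at 0 in 7 of 11 DMH, 6 of 10 PVN and 3 of 11 VMH libraries, but reached 11.9 CPM in the DMH, 5.85 CPM in the PVN and 3.67 CPM in the VMH, so the groups overlapped. The log2 difference was 3.36 ± 0.46 (adjusted p 3.26e-07).

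The SoxB1 gene Sox3, which is expressed in neural progenitors, had an ARC mean of 5.93 ± 4.58 CPM (SD, n = 9) against 1.42 CPM elsewhere. Sox2 of the same group was lower in the ARC, at 1.82 to 10 CPM, against a mean of 15.8 CPM in the other nuclei (log2 difference -1.29 ± 0.23, adjusted p 2.62e-05). Sox2 is also known from astrocytes, and the 3 measured astrocyte markers of 8 (Aldh1l1, Gja1 and S100b) summed to a mean of 119 CPM in the ARC, 187 CPM in the DMH and 167 CPM in both the PVN and the VMH. Their part in the Sox2 values, here and in the DMH, was not tested. The LIM gene Lhx2, which is known from tanycytes as well as neurons, was called higher in the ARC with a log2 difference of 1.12 ± 0.37. Col23a1 was also highest in the ARC, and its part in the values of Sox3 and Lhx2 was not tested. Of the other members called higher, Dlx1 and Dlx5 both had a log2 difference of 1.83, and Sox11, Sox21, Foxd2, Hmx2, Nkx2-4, Dlx6 and Dlx6os1 lay between 1.03 and 1.46. The members lower in the ARC included 3 POU genes and the Zic genes Zic1, Zic2, Zic4 and Zic5. Pou3f2 was at 1.52 to 7.79 CPM in the ARC, with a log2 difference of -2.48 ± 0.20 (adjusted p 2.14e-13), and Zic1 at 0.716 to 16.4 CPM, with a log2 difference of -1.45 ± 0.33 (adjusted p 0.000928). The difference of Zic1 was -0.95 in fasted libraries alone and -0.98 in batch 3 alone, and that of Sox2 was -0.89 in batch 3 alone, all short of the threshold.

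**Figure D2:**
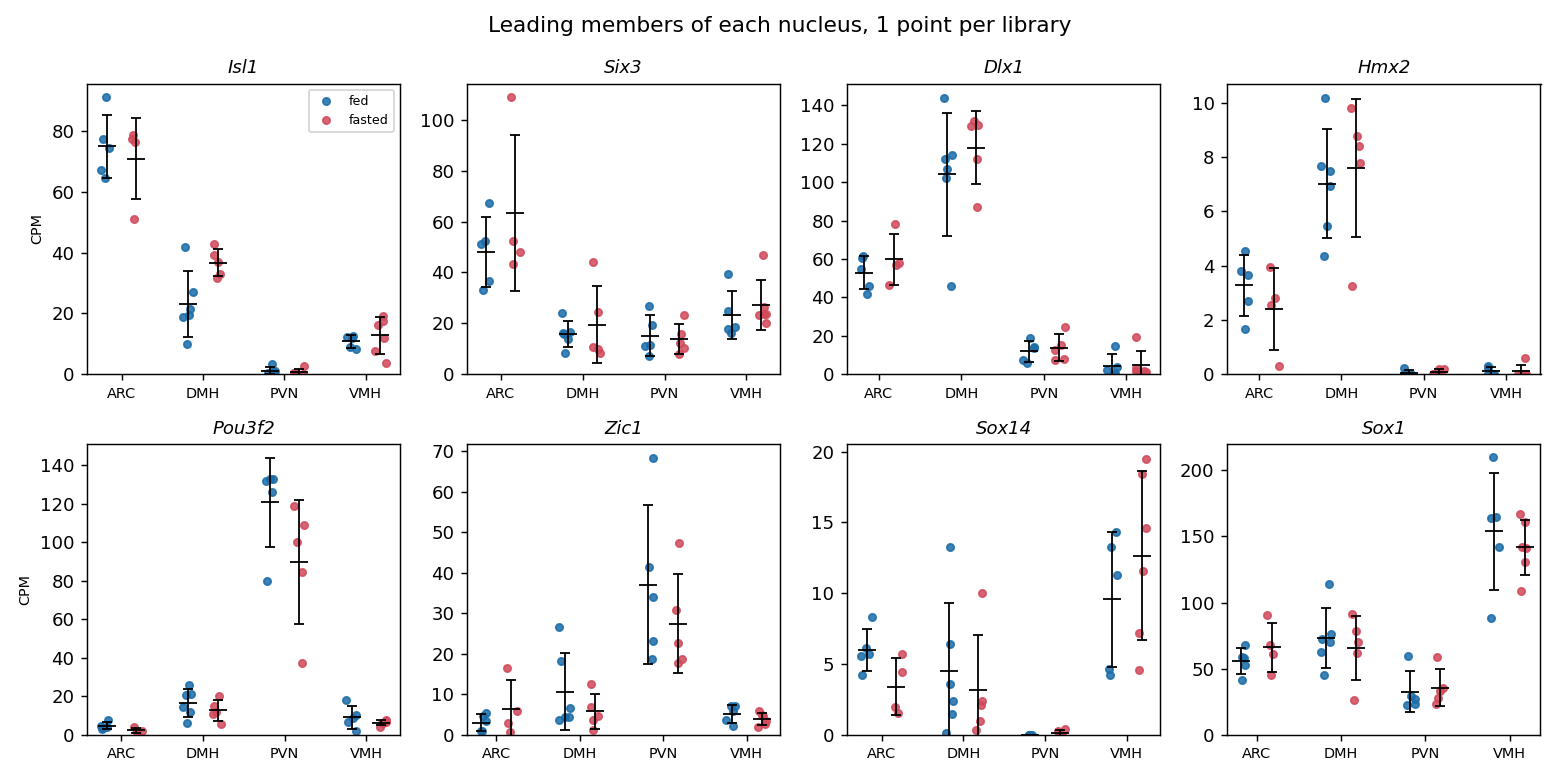
CPM of 8 members in each nucleus (x axis), 1 point per library, in fed and fasted mice, with bars for the mean and SD of each group. Isl1 in the ARC (51.1 to 91.1 CPM) and Pou3f2 in the PVN (37.2 to 133 CPM) lie above all other libraries, whereas Six3, Dlx1, Zic1, Sox14 and Sox1 overlap with at least 1 other nucleus.

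The DMH stood out by the Dlx genes, with Hmx2 and Nkx2-4. Of the 70 members 17 were called higher in the DMH (background 1.89%) and 1 lower (background 1.05%). No member was above all other libraries in every DMH library, where 0.0695% of genes were. Dlx1 had a lowest, median and highest level of 46.1, 112 and 144 CPM in the DMH. It was at 41.8 to 78.1 CPM in the ARC, 5.85 to 24.8 CPM in the PVN and 0 to 19.3 CPM in the VMH. The DMH therefore overlapped with the ARC in 1 library, DMH-92, and the log2 difference from the other nuclei was 3.25 ± 0.29 (adjusted p 1.81e-11). Each step in the order DMH, ARC, PVN, VMH passed the test, the smallest being DMH above ARC, where ARC minus DMH was -1.06 ± 0.36 (adjusted p 0.0438).

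All 5 Dlx members had their highest mean in the DMH and their lowest in the VMH on the log2 scale. Dlx5 averaged 14.8 ± 6.82 CPM (SD, n = 11) in the DMH and 8.83 ± 5.76 CPM (n = 9) in the ARC, but 1.38 ± 0.978 CPM (n = 10) in the PVN and 0.164 ± 0.285 CPM (n = 11) in the VMH, where 7 libraries were listed at 0. Dlx6os1, the noncoding gene that overlaps Dlx6 on the other strand, was at 13.6 to 51.7 CPM in the DMH and at most 21.4 CPM elsewhere, with a log2 difference of 3.52 ± 0.38 (adjusted p 2.94e-09). Dlx1as was at 5.51 to 27.6 CPM in the DMH (2.39 ± 0.29, adjusted p 4.41e-08). The sum of Dlx1, Dlx5 and Dlx6 was 70.5 to 169 CPM in the DMH, 59.1 to 93.8 CPM in the ARC, 6.36 to 26.3 CPM in the PVN and 1.55 to 21.7 CPM in the VMH, so every DMH and ARC library was above every PVN and VMH library.

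Hmx2, a homeobox factor of the developing hypothalamus and ear, was at 3.24 to 10.2 CPM in the DMH and 0.304 to 4.56 CPM in the ARC. It was listed at 0 in 7 of 10 PVN libraries and 8 of 11 VMH libraries and did not exceed 0.609 CPM there. The fitted log2 difference of the DMH was 2.84 ± 0.28 (adjusted p 2.91e-10), a value that depends on the 0.5 added to low levels. Nkx2-4, a relative of the ventral forebrain factor Nkx2-1, was at 9.83, 14.3 and 23.4 CPM in the DMH (lowest, median and highest). Its mean was 8.28 ± 3.82 CPM (SD, n = 9) in the ARC and 5.35 ± 2.77 CPM (n = 11) in the VMH, a difference that missed the threshold (0.54 ± 0.34, adjusted p 0.269). In the PVN it was listed at 0 in 8 of 10 libraries and was at most 0.382 CPM, below every library of the other nuclei.

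Of the remaining DMH calls, Onecut1 and Onecut3, cut homeobox factors, had log2 differences of 1.93 ± 0.42 and 1.98 ± 0.37. The LIM gene Lhx8, known from cholinergic neurons, was at 0 to 7.5 CPM in the DMH and at most 4.13 CPM elsewhere (1.95 ± 0.35). Lhx1os, Dlx6, Isl1, Foxd2, Sox2, Foxp2, Pou3f3 and Pou5f2 lay between 1.04 and 1.93. Sox2 was at 15 to 41.1 CPM in the DMH, against 1.82 to 27.4 CPM elsewhere. The 1 member called lower was Lhx2, at 0.251 to 10.4 CPM in the DMH against a mean of 10.4 CPM elsewhere (log2 difference -1.31 ± 0.36, adjusted p 0.0108). In fed libraries alone it was -0.72, short of the threshold.

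**Figure D3:**
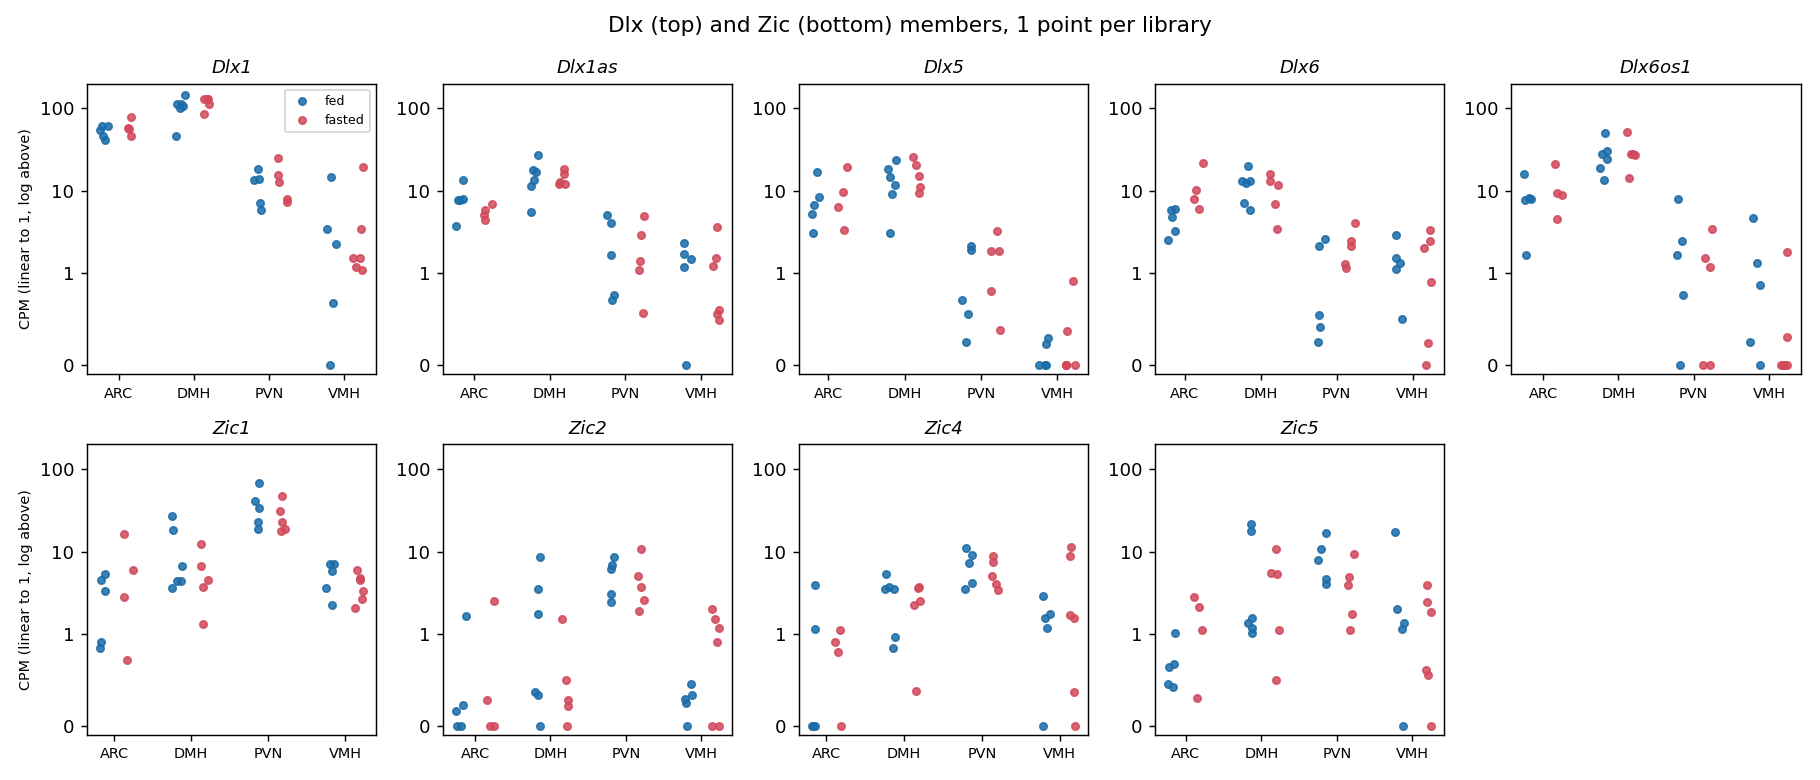
CPM of the 5 Dlx members (top) and 4 Zic members (bottom) by nucleus, 1 point per library, on an axis that is linear to 1 CPM and logarithmic above. Dlx members are highest in the DMH and ARC, and Zic members in the PVN, where Zic1 is at 17.8 to 68.2 CPM.

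The PVN was marked by Pou3f2, the Zic genes and Foxb2. There were 15 members called higher (background 3.13%) and 14 lower (background 3.47%). Pou3f2 (Brn2), at chr4:22482780-22488366 on the minus strand, had a lowest, median and highest PVN level of 37.2, 114 and 133 CPM. It did not exceed 25.8 CPM in the DMH, 18 CPM in the VMH and 7.79 CPM in the ARC. All PVN libraries lay above all others, as they did for 0.258% of genes, and the log2 difference was 3.76 ± 0.19 (adjusted p 9.48e-20). Between the other nuclei it was higher in the DMH than in the VMH by 0.93 ± 0.23 (adjusted p 0.00236), and ARC minus VMH was -0.92 ± 0.24 (adjusted p 0.0027). Of its relatives, Pou3f4 was at 3.58 to 15.5 CPM in the PVN against a mean of 2.05 CPM elsewhere (2.23 ± 0.29, adjusted p 8.56e-08). Pou3f3 was called higher in the DMH instead, at 6.48 to 22.2 CPM, and was at 4.29 to 23.4 CPM in the VMH.

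Zic1, Zic2, Zic4 and Zic5, zinc finger factors of the dorsal neural tube and midline, were called higher in the PVN. Zic1 was at 17.8, 26.9 and 68.2 CPM there (lowest, median and highest), against 1.32 to 26.7 CPM in the DMH, 0.716 to 16.4 CPM in the ARC and 2.06 to 7.1 CPM in the VMH. The PVN and DMH ranges overlapped, and the log2 difference of the PVN was 2.69 ± 0.31 (adjusted p 5.64e-09). Between the other nuclei no difference in Zic1 passed the threshold, with log2 differences of at most 0.77 in size and adjusted p of 0.216 or more. Zic2 averaged 5.14 ± 2.96 CPM (SD, n = 10) in the PVN and 0.936 CPM elsewhere (2.38 ± 0.35, adjusted p 1.22e-06). Zic4 and Zic5 had smaller log2 differences, 1.80 ± 0.39 and 1.49 ± 0.44, and that of Zic5 was 0.85 in fasted libraries alone and 0.83 in batch 2 alone.

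Foxb2, a forkhead gene with a restricted pattern in the embryo, was at 1.53 to 11.2 CPM in every PVN library. It was listed at 0 in all 9 ARC libraries, in 9 of 11 DMH libraries and in 9 of 11 VMH libraries, and was at most 0.753 CPM outside the PVN. Foxp2, a forkhead repressor of many brain regions, was at 51 to 137 CPM in the PVN, 44.9 to 84 CPM in the DMH, 16.9 to 55 CPM in the ARC and 2.58 to 28.2 CPM in the VMH. It was called higher in the PVN (2.11 ± 0.22), where DMH minus PVN was -0.72 ± 0.27 (adjusted p 0.0729). Lhx2 was at 6.42 to 46.5 CPM in the PVN against a mean of 4.49 CPM elsewhere (2.50 ± 0.36, adjusted p 5.35e-07), and the difference between ARC and PVN missed the threshold (ARC minus PVN -1.03 ± 0.45, adjusted p 0.138). Ebf1, an Ebf factor of neurons and of mural cells, was also called higher (1.99 ± 0.32), as was Lhx5 (1.29 ± 0.31).

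The PVN calls also held Sox18 (1.24 ± 0.34), Sox7 (1.13 ± 0.32) and Foxf2 (1.02 ± 0.42), factors known from vessels. The endothelial markers summed higher in every PVN library than in any other, as given above, and their part in these 3 calls was not tested. Foxf2 was the weakest of them and did not pass the F-test between nuclei (adjusted p 0.16 by limma): its difference within batch 3 alone was -0.10, against 1.47 and 1.95 in batches 1 and 2. Sox14 was lower in the PVN, listed at 0 in 8 of 10 libraries and at most 0.403 CPM, against a mean of 6.79 CPM elsewhere (-3.26 ± 0.33, adjusted p 1.81e-10). Isl1 (-4.56 ± 0.22) and Nkx2-4 (-3.97 ± 0.27) had larger differences. Sox1, Sox1ot, Six4, Foxd2, Hmx2, Tbx3os2 and the 5 Dlx members made up the rest of those lower in the PVN, between -2.09 and -1.10.

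The VMH had few members higher and many lower. Only 5 were called higher (7.14% of those tested, background 4.15%) and 16 lower (22.9%, background 3.89%). No member separated all VMH libraries from all others, where 0.774% of genes lay above and 0.238% below. Sox14, a repressor known from GABA neurons of the diencephalon, was at 4.25 to 19.5 CPM in the VMH with a mean of 11.2 ± 5.45 CPM (SD, n = 11). It was at 1.52 to 8.29 CPM in the ARC and 0.121 to 13.3 CPM in the DMH, so the ranges overlapped, and the log2 difference was 2.32 ± 0.33 (adjusted p 3.13e-07). Sox1, a SoxB1 factor at chr8:12395295-12400126 on the plus strand, had a lowest, median and highest VMH level of 88.4, 142 and 210 CPM. It was at 26.4 to 114 CPM in the DMH, 41.5 to 90.3 CPM in the ARC and 22.3 to 60 CPM in the PVN (1.56 ± 0.15, adjusted p 3.38e-11).

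Sox1ot, a noncoding gene that spans Sox1 on the same strand, was at 57.9 to 114 CPM in the VMH (1.29 ± 0.12, adjusted p 3.13e-11). Their annotated exons share no bases. Sox13 (1.27 ± 0.31) and Six4 (1.29 ± 0.34) were at lower levels, 3.09 to 20.9 CPM and 1.22 to 14.2 CPM in the VMH. The difference of Six4 was 1.80 in fed and 0.75 in fasted libraries alone, and 0.45, 2.10 and 0.91 in batches 1, 2 and 3, so its call was lost in fasted libraries and in batches 1 and 3. Six4 missed the threshold between VMH and ARC (ARC minus VMH -0.45 ± 0.43, adjusted p 0.505), and Sox13 missed it between VMH and DMH (DMH minus VMH -0.84 ± 0.38, adjusted p 0.128). The members lower in the VMH were led by Dlx1 (-3.98 ± 0.29, adjusted p 6.06e-15), Dlx5 (-3.19 ± 0.26, adjusted p 2.12e-13) and Foxp2 (-2.93 ± 0.22, adjusted p 3.27e-14). The difference of Foxp2 was -0.96 in batch 1 alone, short of the minimum of 1, against -3.17 and -3.66 in batches 2 and 3. All 5 Dlx members and all 4 Lhx members were among the 16. Of these, Lhx5 was at 0 to 6.43 CPM in the VMH and 1.79 to 20.7 CPM elsewhere. Dlx1 reached 14.7 and 19.3 CPM in 1 fed and 1 fasted VMH library and stayed at or under 3.49 CPM in the other 9.

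These calls were compared between batches and feeding states. Of the members called, 27 of 28 in the ARC, 18 of 18 in the DMH, 28 of 29 in the PVN and 21 of 21 in the VMH kept their sign in each of the 3 batches alone. The exceptions were Dlx6os1 in the ARC, with -0.11 in batch 1, and Foxf2 in the PVN. In fed and in fasted libraries taken alone, all 96 differences kept their sign. Their size was less stable: 36 of the 96 were under 1 in at least 1 batch alone, 20 in fed or in fasted libraries alone, and 38 in any of these (19 of 28 in the ARC, 4 of 18 in the DMH, 9 of 29 in the PVN and 6 of 21 in the VMH). Within single batches Isl1 in the ARC lay between 3.09 and 3.84, Pou3f2 in the PVN between 3.64 and 3.90, and Sox14 in the VMH between 1.99 and 2.87.

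By family, all measured Dlx, Ebf, Lhx, Onecut and Pou members passed the F-test, as did Zic1, Zic2, Zic4 and Zic5. Of 16 Sox members 14 passed, and of 15 Fox members tested 8 did, where 43.4% of all genes tested passed. The Fox count was thus near the share of all genes. Another 14 members passed the F-test with no difference of 1 or more from the mean of the other nuclei. Of these, Onecut2 was at 14.3 to 48.4 CPM in the DMH and 8.78 to 28.6 CPM in the PVN, against 4.24 to 20.1 CPM in the ARC and 5.87 to 18.4 CPM in the VMH, and ARC minus DMH was -1.38 ± 0.25 (adjusted p 6.07e-05). Sox4, a SoxC factor of young neurons, averaged 17.4 CPM in the ARC and 7.66 CPM in the VMH (ARC minus VMH 1.21 ± 0.27, adjusted p 0.000626). Of the same group, Sox11 was also highest in the ARC, whereas Sox12 was highest in the VMH.

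Foxp1 was at 37.1 to 109 CPM in the PVN and averaged 48.9 to 51.2 CPM in the other nuclei, and PVN minus VMH was 0.58 ± 0.17 (adjusted p 0.00738). Foxn3 was highest in the DMH, with a mean of 42.3 CPM against 24.4 to 30.7 CPM elsewhere, as was Pbx3, with 27.1 CPM against 15.9 to 22.4 CPM. Foxr2 and Ebf4 were highest in the ARC, with means of 21.1 and 18.1 CPM, and Sox12 in the VMH, with 22.8 CPM. The SoxD factors Sox5 and Sox6 averaged 62.7 and 36 CPM in the DMH and 46 and 24.5 CPM in the ARC. Nkx6-2, which is also expressed by oligodendrocytes, averaged 21.3 CPM in the VMH and 12.6 CPM in the ARC (ARC minus VMH -0.99 ± 0.29, adjusted p 0.00845). The oligodendrocyte markers had their highest and lowest medians in the same nuclei, and the part of these cells in the value was not tested. Foxc1, known from vessels and meninges, averaged 4.62 CPM in the PVN, 4.48 CPM in the DMH, 4.38 CPM in the VMH and 1.83 CPM in the ARC. The DMH mean held 1 library, DMH-92, at 22.3 CPM. Foxc2, which was not tested, reached 6.67 CPM in the same library and was listed at 0 in 9 of 11 DMH libraries. DMH-92 also had the lowest Dlx1 level of the DMH (46.1 CPM) and the highest Zic1 (26.7 CPM), Zic5 (21.8 CPM) and Sox13 (38.3 CPM). The 3 measured fibroblast markers of 5 summed to a median of 8.95 CPM and a maximum of 99.5 CPM in the DMH, and their part was not tested.

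Differences between nuclei were not shown for every member. The F-test did not call 15 members, which were Foxk1, Foxj3, Foxn2, Foxb1, Foxj1, Foxf2, Foxq1, Pbx2, Pbx4, Sox10, Six5, Irx1, Meis3, Nkx2-2os and Sox5os1. Foxf2 is among them although it was called in the PVN against the mean of the other nuclei. The 5 members with a mean of at least 5 CPM and the smallest spans were Pbx2, Foxk1, Foxn2, Foxj3 and Foxk2. Pbx2, a TALE homeodomain partner of other homeodomain factors, averaged 38.3 to 41.5 CPM in the nuclei, a span of 0.10 on the log2 scale (adjusted p 0.844 by the F-test of limma). Foxk1, a broadly expressed forkhead factor, averaged 65.5 to 68.7 CPM (span 0.11, adjusted p 0.888), and Foxn2 17.4 to 19.4 CPM (span 0.16, adjusted p 0.82). Foxj3 averaged 155 to 180 CPM (span 0.24, adjusted p 0.307). Foxk2 averaged 67.3 to 87.9 CPM, and its span of 0.39 passed the test (adjusted p 0.0517). Sox10, of the oligodendrocyte lineage, averaged 11 to 20.2 CPM and was highest in the VMH, as were the oligodendrocyte markers, but did not pass the F-test (adjusted p 0.115).

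**Figure D4:**
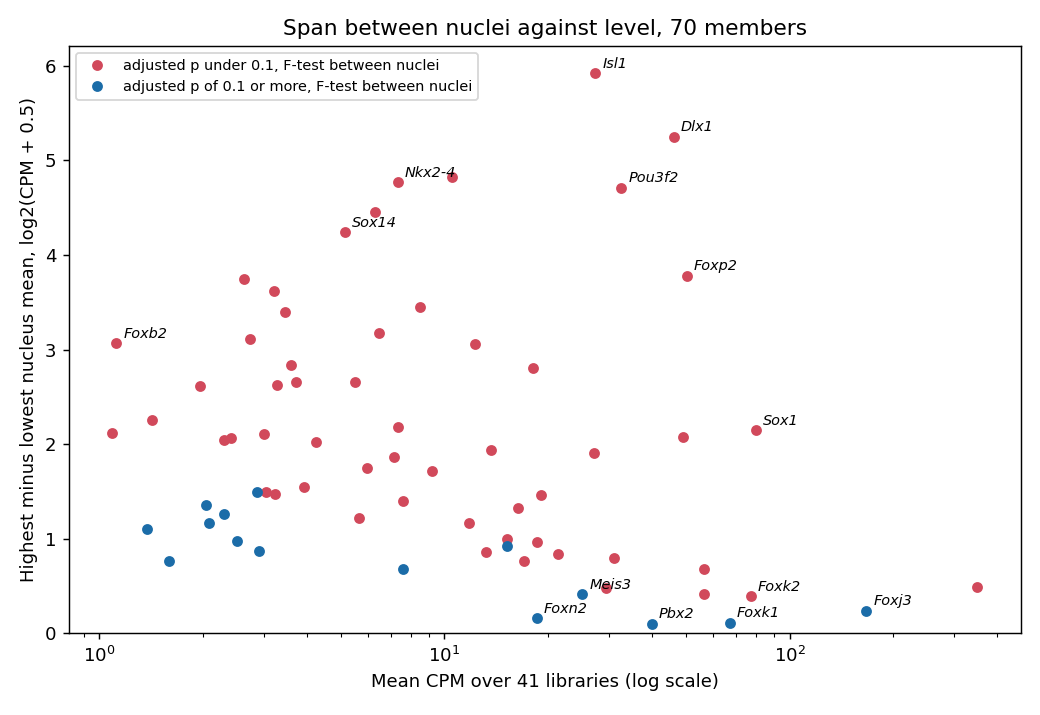
Difference between the highest and the lowest nucleus mean of log2(CPM + 0.5) against the mean CPM over 41 libraries (log axis) for the 70 members, coloured by the F-test between nuclei. Isl1 has the largest span (5.92), and Pbx2 (0.10) and Foxk1 (0.11) have the smallest spans at means of 39.9 and 67 CPM.

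Members that lie next to each other in the genome were compared over the 41 libraries as a description, since libraries of 1 mouse are not independent and nuclei fall into clusters. On chromosome 6, Dlx5, Dlx6 and Dlx6os1 had Pearson r of 0.74 to 0.81 on the log2 scale. On chromosome 2, Dlx1 and Dlx1as, which share 335 bp of exon on opposite strands, had an r of 0.80, and Sox1 and Sox1ot on chromosome 8 had 0.79. Zic1 and Zic4 on chromosome 9, which share 60 bp of exon, and Zic2 and Zic5 on chromosome 14, 9758 bp apart, both had 0.56. Six3 and Six3os1 had 0.60. Other neighbours differed more: r was 0.37 for Foxc1 and Foxf2, 0.10 for Foxf2 and Foxq1, 0.01 for Nkx2-4 and Nkx2-2os, and 0.16 for Sox5 and Sox5os1, which share 1330 bp.

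In each nucleus the member called higher with the largest log2 difference was taken, with Isl1 in the ARC, where Tbx3os2 was equal at 3.36. Outside the families, the genes with the profile most like each were picked by Pearson r over the 41 libraries, again as a description. For Isl1 these were Hs6st2 (0.92), Gpc4 (0.84) and Esyt3 (0.84). For Dlx6os1 they were Gpr50 (0.85) and the GABA neuron genes Gad1 (0.85) and Slc32a1 (0.83). Those for Pou3f2 were Reln (0.88), Gm11892 (0.87) and Ucn3 (0.87), and those for Sox14 included Plppr4 (0.81) and Gpr83 (0.80).

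A list of 42 other hypothalamic regulators had 16 genes in the table, of which 15 differed between nuclei by the F-test (background 43.4%). Of these 16, 2 were called higher and 6 lower in the ARC, 4 and 2 in the DMH, 4 and 2 in the PVN, and 5 and 5 in the VMH. The shares of all genes called higher and lower were 2.74% and 3.11% in the ARC, 1.89% and 1.05% in the DMH, 3.13% and 3.47% in the PVN, and 4.15% and 3.89% in the VMH. Neither they nor the cofactors had a gene called in a fasting test. Bsx, a homeobox factor of Npy and Agrp neurons, averaged 19.3 ± 12.9 CPM (SD, n = 9) in the ARC and 18.6 ± 8.55 CPM (n = 11) in the DMH, and was at most 1.52 CPM in the other nuclei. Nr2f2, an orphan nuclear receptor, averaged 114 ± 22.6 CPM (n = 11) in the VMH and 7.54 ± 5.51 CPM (n = 9) in the ARC. Of 24 proteins that act with the member families 13 were measured and 10 differed between nuclei by the F-test, against the same backgrounds. Of these, 0 and 1 were called higher and lower in the ARC, 0 and 1 in the DMH, 2 and 1 in the PVN, and 2 and 2 in the VMH. Lmo3, a LIM-only protein, was at 322 to 610 CPM in the VMH and at most 188 CPM elsewhere (2.05 ± 0.08, adjusted p 1.12e-24). Ldb2, a cofactor of LIM homeodomain factors, was at 110 to 200 CPM in the VMH and at most 94.1 CPM elsewhere (1.60 ± 0.13, adjusted p 6.36e-14). The 3 coding Lhx members and the noncoding Lhx1os were called lower in the VMH, whereas Isl1, also a LIM homeodomain factor, was not. Lmo2 was lower in the VMH (-1.80 ± 0.25) and higher in the PVN (1.59 ± 0.25).

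The second comparison asked whether these genes responded to a 24 h fast. Within single nuclei, no member passed the threshold by limma with batch as a covariate. There were 0 of 60 members in the ARC (background 0.176%), 0 of 66 in the DMH (0.0103%), 0 of 60 in the PVN (0.367%) and 0 of 60 in the VMH (0.0208%). Without adjustment, p was below 0.05 for 5, 5, 7 and 3 members, which is 8.33%, 7.58%, 11.7% and 5% of those tested, against 8.1%, 6.62%, 9.97% and 6.98% of all genes. The median difference over the members was between -0.03 and 0.02 on the log2 scale, and the median SE was 0.40 to 0.49. At this number of mice, differences well above that SE were also not called. Among them were Dlx6 in the ARC (1.14 ± 0.49, adjusted p 0.574 by limma) and Sox21 in the DMH (-1.25 ± 0.50, adjusted p 0.695).

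The members with the smallest p in each nucleus were these. In the ARC, the forkhead gene Foxp1 was at 38, 55, 67.4 and 93.9 CPM in fasted mice and at 25.4, 30.2, 39.6, 44.4 and 46.3 CPM in fed mice. The groups overlapped (0.78 ± 0.25, adjusted p 0.424 by limma). Foxp1 shares 300 bp of exon with Gm20696 on the same strand, so some reads may be common to both. In the PVN, Pou3f2 was at 37.2, 84.5, 100, 109 and 119 CPM in fasted mice and at 79.9, 126, 132, 133 and 133 CPM in fed mice (-0.50 ± 0.15, adjusted p 0.253 by limma). In 4 of 5 fed libraries it was above all fasted libraries. The lowest library of each state was of batch 1 (79.9 CPM fed and 37.2 CPM fasted), and within each of the 3 batches every fed value was above every fasted value. In the DMH it was Meis3, at 16.1, 29.8, 41.2, 41.5 and 63 CPM in fasted mice and at 9.44 to 37.2 CPM in 6 fed mice (0.86 ± 0.26, adjusted p 0.638 by limma). In the VMH it was again Meis3, at 15.6 to 46.9 CPM in 6 fasted mice and at 6.6, 14.7, 16.7, 17.8 and 26.8 CPM in fed mice (0.67 ± 0.28, adjusted p 0.663 by limma). Both pairs of groups overlapped.

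Averaged over the nuclei, with mouse as a random block, 2 of 70 members passed the test (2.86%, background 3.13%). Meis3, a TALE homeodomain factor that works with Pbx and Hox proteins, averaged 29.9 ± 12.3 CPM (SD, n = 20) in fasted and 20.6 ± 7.61 CPM (n = 21) in fed libraries, a log2 difference of 0.55 ± 0.13 (adjusted p 0.0174). Its difference was 0.15 ± 0.25 in the ARC, 0.86 ± 0.26 in the DMH, 0.49 ± 0.26 in the PVN and 0.67 ± 0.28 in the VMH. Sox6, a SoxD factor of interneurons and glial precursors, averaged 24.7 ± 6.47 CPM (n = 20) in fasted and 33.8 ± 13.2 CPM (n = 21) in fed libraries (-0.39 ± 0.12, adjusted p 0.0766). The difference of Sox6 was below 0 in the ARC (-0.35), DMH (-0.62), PVN (-0.43) and VMH (-0.13). In each nucleus a library of batch 1 had the highest Meis3 level among fasted libraries and another among fed libraries. Those of fasted mouse 86 were at 38.6 CPM in the ARC, 63 CPM in the DMH, 41.6 CPM in the PVN and 46.9 CPM in the VMH, and the fed libraries ARC-111, DMH-111, PVN-111 and VMH-111 at 28.7, 37.2, 28.5 and 26.8 CPM. With any 1 mouse left out, the adjusted p of Meis3 stayed between 0.014 and 0.089 by limma. That of Sox6 ranged from 0.0471 to 0.281 and was above 0.1 in 8 of 12 such fits. It stayed below only without the mouse of library VMH-85, VMH-86, DMH-92 or VMH-305. Without the batch covariate neither was called.

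**Figure D5:**
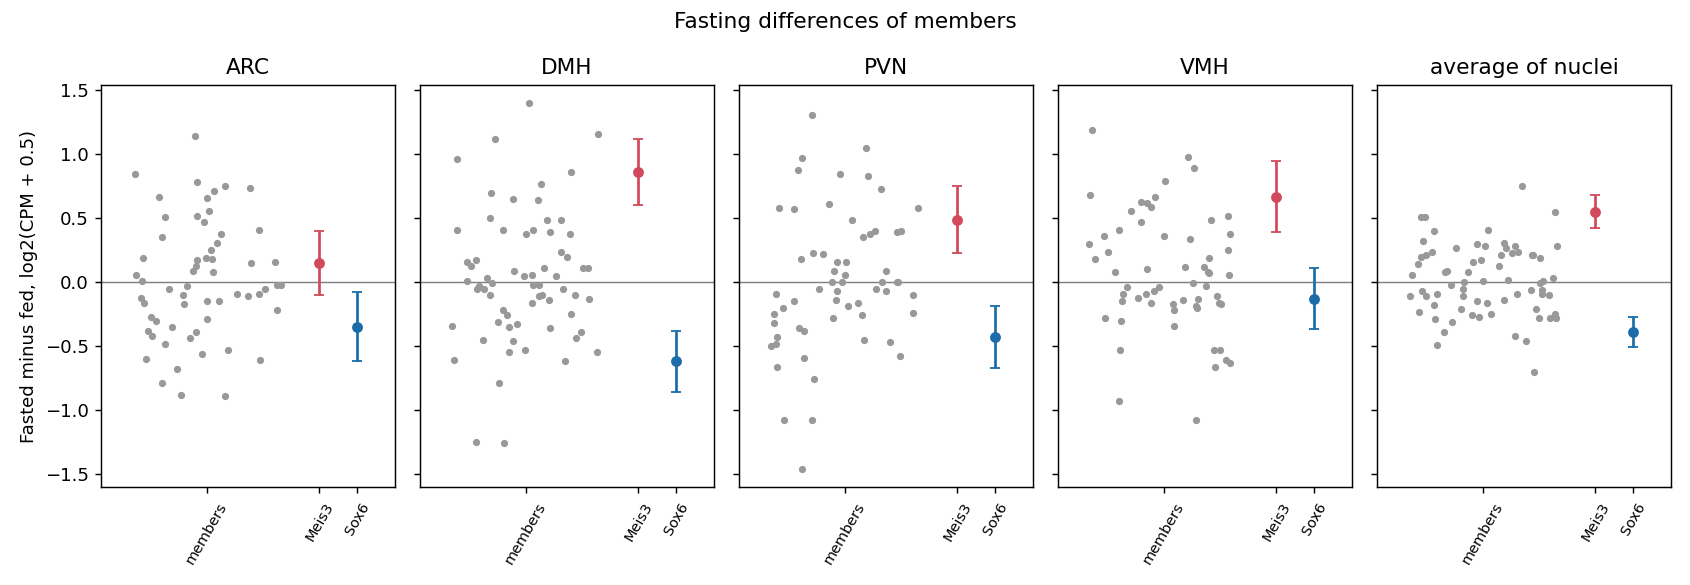
Log2 difference between fasted and fed libraries of the members tested (grey points, Meis3 and Sox6 included) in each nucleus and averaged over nuclei, with Meis3 and Sox6 repeated beside them with their SE. Meis3 lies above 0 and Sox6 below 0 in each nucleus, and their averages are 0.55 and -0.39.

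Whether the change with fasting differed between nuclei was tested by an interaction of nucleus and state within mice. It was called for 0 of 70 members and for 0% of the 10077 genes by limma. Without adjustment, p was below 0.05 for 2 members, Ebf4 and Lhx1os (2.86%), and for 562 genes (5.58%). The smallest adjusted p among members was 0.853, for Ebf4.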

How the data were processed

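The nuclei, per the labels and methods, were laser captured from frozen brain sections, RNA was amplified, and single-end reads were sequenced. The 3 batches are those in which brains were captured and libraries prepared. The authors deposited CPM per Ensembl gene, scaled to the reads of each library. The submitters' processing notes name CASAVA 1.7, TopHat2 2.0.11 and Cufflinks 2.2.1 with GRCm38. How reads were assigned to genes, and whether strand was used, is not given in the sources used here, so overlapping and antisense genes may share reads. Outlier libraries were removed by the authors, which can lower the spread between replicates.

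By nucleus, state and mouse number 41 columns were matched to samples. Another 2 columns, headed ARC for fasted mouse 85 and for fed mouse 92, fitted no label, because the labels call these samples PVN. They were left unused in both nuclei, which leaves 2 of 43 labelled samples not analysed here, although the design had named all 43. Symbols, GRCm38 coordinates and exon lengths came from GENCODE M21, which named 9891 of the 10127 genes. Depth was estimated from the step between low values, of which 97.7% to 98.7% were whole multiples. A gene at 5 CPM rests on about 9.7 reads in the shallowest library, and since RNA was amplified, floors cover counting error only. Some values were not whole multiples, so no test on counts was run.

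Tests were run with limma 3.58.1 in R 4.3.3 on log2(CPM + 0.5), which understates differences of low genes, with Benjamini-Hochberg adjustment over all genes and a threshold of 0.1. Nuclei were compared in 41 libraries with mouse as a fixed block, which takes up batch and state, for genes at 1 CPM or more in at least 9 libraries. Mice 85 and 92 each gave 1 library, VMH-85 and DMH-92, which such a block takes up whole. Those libraries add nothing to the differences between nuclei or to the interaction, but are included in ranges, means and n. Fasting was tested per nucleus with batch as a covariate, for genes reaching 1 CPM in at least the number of libraries of its smaller group. The average over nuclei used mouse as a random block, and the interaction used mouse as a fixed block. All tests were 2-sided. The mouse number pairs libraries because the same animal gave several nuclei. Residuals of libraries of 1 mouse had a median correlation of -0.05 over 57 pairs, and -0.06 over 51 pairs of different mice. The fits were also run on simulated data with known changes, but the outcome is not given here and is not used as support.

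Full values were given for 6 members called higher and 3 called lower per nucleus that averaged 5 CPM or more, for members called or with the smallest p in a fasting test, for the 5 with the smallest spans, and for neighbours in the genome. The members and lists were chosen with earlier results of these data known. Alternatives were other pseudocounts and filters, rescaled libraries, depth as a covariate, library weights, other blocks, left-out mice or libraries, single batches and single feeding states. Results for some members are not reported here.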

Additional observations from a re-analysis of the deposited data

Results flagged for a closer look

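In 52 groups of at least 4 libraries, taken for the members described above in the nucleus they were named for, 4 groups had 1 library far from the others, where chance alone flags about 1 in 20 groups, here 2.6. Isl1 was at 51.1 CPM in the fasted library ARC-311, against 76.6 to 78.7 CPM in the other fasted ARC libraries. Six3 was at 109 CPM in the fasted library ARC-86, against 43.5 to 52.5 CPM. Nkx2-4 was at 23.4 CPM in the fed library DMH-308, against 9.83 to 14.3 CPM. Pou3f2 was at 79.9 CPM in PVN-111, the 1 fed PVN library of batch 1, against 126 to 133 CPM, and the 1 fasted PVN library of batch 1 was also the lowest of its group, at 37.2 CPM. Every nucleus difference named for these 4 members was called in each of the fits that left out 1 mouse.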

How the results depend on the processing

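The 33 nucleus differences described with full values were refitted under each alternative and with each mouse left out. Most of them lost their call under at least 1 alternative, Lhx2 in the DMH under 4 of 15 and Six4 in the VMH under 4 of 14. In all, 848 of 884 fits gave the same call, 36 fell short of the threshold and 0 changed sign. These fits include 396 with 1 mouse left out, of which all 396 gave the same call, so the 36 came from the other alternatives. Leaving out mouse 85 or mouse 92 could not change a difference, since each gave 1 library that the mouse block takes up. Rescaling the libraries by median ratios moved no nucleus by more than 0.01 on the log2 scale, and all 96 calls held.

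Counts of members that moved by over 1.5 times were these. With a pseudocount of 2 the ARC had 7 members higher and 5 lower, the PVN 9 lower and the VMH 3 higher. With a pseudocount of 0.1 the DMH had 2 lower. With a mean of at least 5 CPM, which tests fewer members, the ARC had 6 lower, the DMH 10 higher and the PVN 7 higher. In fed libraries alone the ARC had 9 higher and 8 lower and the DMH 0 lower, and in fasted libraries alone the ARC had 6 lower. With no minimum difference the DMH had 6 lower and the VMH 10 higher. The count of members changed by fasting on average was 1 with depth as a covariate, 5 with library weights and 0 without the batch covariate. The cause was not tested for the settings of pseudocount 0.1, depth, weights and batch.

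With 1 mouse left out, the members lower in the DMH ranged from 1 to 2 (2 without the mouse of library DMH-101, DMH-111 or DMH-305) and those changed by fasting on average from 1 to 3 (1 without the mouse of library PVN-100, PVN-101, PVN-125, PVN-127, PVN-308 or PVN-313). Foxk2 lost its F-test call in 4 of 12 such fits. Without the replicate block, the counts of members that differed between pairs of nuclei were 30 to 39, against 31 to 39, and no other count moved by over 1.5 times. Within a nucleus each mouse gave 1 library, so no paired fit of fasting was possible there. Members at a few CPM rest on few reads, so differences between nuclei that are both near 0 are limited by depth.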
